A study of Mus musculus with 38 samples.

Results

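Wild type mouse retina at 6 months of age was compared with wild type retina at 1 month by bulk RNA sequencing. The comparison rests on 6 of the 15 RNA libraries of the series, 3 at each age, and all 6 carry the label of Kdm3b wild type. Wild type libraries of later ages are shown as a description only. Some alternative fits also took their spread from these later ages and from Kdm3b heterozygous libraries. The labels name no treatment, strain, sex or pooling of animals, and whether the replicates come from different mice is not stated. Every p below therefore measures only spread between libraries. This is the spread of these 6, except in alternative fits that leave libraries out or add others of the series. Transcripts were kept when their mean over the 6 libraries was at least 50 CPM, which here are counts relative to a common library total after median-ratio scaling. This left 3847 of the 80639 transcripts with a count in these libraries, and of the 142699 listed. The limit cut through a dense part of the range: 75 transcripts lay within 1 CPM above it and 88 within 1 CPM below it.

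The retina turns light into nerve signals. In the mouse most of its cells are rods, whose outer segments hold the light-absorbing pigment and the proteins that relay its signal, while bipolar, amacrine, horizontal and ganglion cells process that signal and Müller glia support them. At 1 month the layers and synapses of the mouse retina are in place, so the comparison with 6 months follows young adult tissue into later adult life. The rows carry Ensembl transcript identifiers, and 0 of them were found in the reference tables used here. No gene name, gene group, sequence or cell type marker could therefore be attached to a row, and the label of the tissue could not be checked against its markers.

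The 6 libraries held 17169253 to 19826859 counts, and the 3847 abundant transcripts took up 64.5% to 69.1% of them. Replicates 2 and 3 at 1 month detected 37489 and 40426 transcripts and replicate 2 at 6 months detected 34477. Replicate 1 at 1 month detected 57881, and replicates 1 and 3 at 6 months detected 60517 and 51843. The number of transcripts detected therefore overlapped between the ages, but it was low in 2 of 3 libraries at 1 month and in 1 of 3 at 6 months. Leaving out these 3 libraries kept only replicate 1 at 1 month, against replicates 1 and 3 at 6 months. That fit took its spread from the other RNA libraries of the series, Kdm3b heterozygous ones included. With 1 library at 1 month it cannot decide whether the number of transcripts detected affects the calls. Among the abundant transcripts few values were lost: each library had 0 reads for 5 to 39 of the 3847, or 0.13% to 1.01%.

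Replicate 1 of each age stood apart from the other libraries, and more so than the ages did. Across the abundant transcripts, the Spearman correlation between replicate 1 at 1 month and replicate 1 at 6 months was 0.873, the highest of the 15 pairs. With the other libraries, replicate 1 at 1 month reached 0.668 to 0.732 and replicate 1 at 6 months 0.656 to 0.745. Replicates 2 and 3 correlated at 0.839 with each other at 1 month and at 0.837 at 6 months, and the 4 correlations between them across ages ran from 0.739 to 0.848. The lowest of these 4, 0.739 and 0.766, were those of replicate 2 at 6 months. These correlations are across transcripts, which are not independent, and the libraries share their abundance range. Replicate 2 at 6 months also stood apart on the second principal component, an axis of spread between libraries. It scored 43.1 there and the others -14.2 to 0.915. This component held 31.9% of the variance and the first 36.8%. Of each transcript's variance on the log2(CPM + 1) scale, age took a median of 13.6% and the difference between replicate 1 and the other libraries 35.2%. The latter share was larger for 2461 transcripts (64%), a grouping made after these correlations were seen. What replicate 1 of the 2 ages has in common is not stated in the labels.

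**Figure D1:**
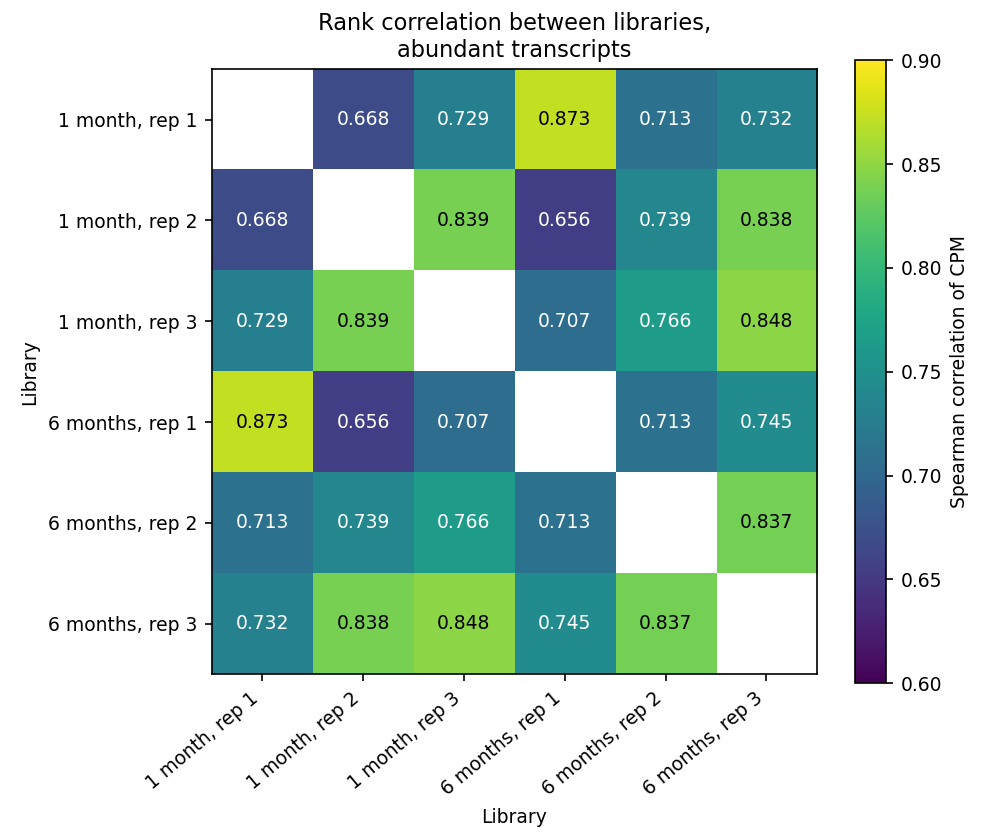
Spearman correlation of CPM over the 3847 abundant transcripts for each pair of the 6 libraries (rows and columns are libraries, and colour and number give the correlation). The brightest cell is replicate 1 at 1 month with replicate 1 at 6 months (0.873), and both libraries are dark against the remaining 4.

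The most abundant transcripts showed the same division. ENSMUST00000032471, the most abundant of all, was at 18100, 27600 and 28400 CPM in replicates 1 to 3 at 1 month and at 13500, 30100 and 29400 CPM at 6 months. ENSMUST00000010205 was at 11400, 18300 and 18100 CPM at 1 month and at 10100, 17400 and 18800 CPM at 6 months. In both transcripts replicate 1 was the lowest library at either age, and the means of the ages nearly coincided. Their log2 fold changes from 1 to 6 months were -0.02 with a 95% interval of -1.0 to 0.96 and -0.04 with an interval of -0.91 to 0.82, so a change of nearly 2-fold in either direction could not be told from none. ENSMUST00000082402, next in abundance, was at 12100, 10000 and 11100 CPM at 1 month and at 13300, 15000 and 12000 CPM at 6 months. It did not follow the division by replicate 1, its groups overlapped by a small margin, and its log2 fold change was 0.27 with a 95% interval of -0.32 to 0.87. The 10 most abundant transcripts of each library took 7.95% and 7.73% of the counts in replicate 1 at 1 and 6 months and 9.55% to 10.4% in the other 4 libraries.

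The first question was which abundant transcripts differ between the ages. No transcript passed edgeR's quasi-likelihood test on the 6 libraries (0 of 3847, or 0%, at a Benjamini-Hochberg adjusted p of 0.05), and the lowest adjusted p was 0.774. An unadjusted p under 0.05 was held by 180 transcripts (4.68%), 99 higher and 81 lower at 6 months. limma voom with library weights called 0 and had 389 with an unadjusted p under 0.05. DESeq2 called 10 (0.26%), 8 higher and 2 lower at 6 months. All 10 had groups that did not overlap and a count in every library, and their fitted folds ran from 1.41 to 2.49 with a median of 1.85. Of these 10, 9 were also among the 10 lowest p values of edgeR, so the 2 tools ranked the same transcripts first and differed in whether they passed.

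The 2 transcripts with the lowest p among those higher at 6 months were chosen for groups without overlap. Tight groups follow from that choice and are not evidence of a change. ENSMUST00000020145 was at 201, 242 and 216 CPM at 1 month and at 409, 408 and 430 CPM at 6 months. The means were 220 ± 20.9 and 416 ± 12.4 CPM (SD, n = 3 each), a 1.89-fold difference. The log2 fold change was 0.92 with a standard error of 0.132 and a 95% interval of 0.60 to 1.23. Yet the adjusted p was 0.774 in edgeR, over 3847 transcripts, and 9.35e-07 in DESeq2, which left 6 of them without one. ENSMUST00000108817 was at 88.8, 95.4 and 83.5 CPM at 1 month and at 168, 166 and 147 CPM at 6 months. Its means were 89.2 ± 5.97 and 160 ± 11.4 CPM (SD, n = 3 each), a 1.79-fold difference. The log2 fold change was 0.84 with a standard error of 0.145 and an adjusted p of 0.774 in edgeR and 0.00012 in DESeq2. In neither transcript did replicate 1 stand apart from the other libraries of its age at 1 or 6 months, the ages used to choose them.

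Of the transcripts lower at 6 months, ENSMUST00000121746 had the lowest p. It was at 76.8, 59.8 and 80 CPM at 1 month and at 30.1, 28.5 and 32.9 CPM at 6 months. The means were 72.2 ± 10.9 and 30.5 ± 2.21 CPM (SD, n = 3 each), a level 2.37-fold lower at 6 months. Its log2 fold change was -1.24 with a standard error of 0.195, and the adjusted p was 0.774 in edgeR and 4.14e-05 in DESeq2. ENSMUST00000113600 was at 203, 203 and 226 CPM at 1 month and at 151, 115 and 137 CPM at 6 months, 1.57-fold lower. Its log2 fold change was -0.65 with a standard error of 0.158, and it passed neither edgeR (adjusted p 0.989) nor DESeq2 (adjusted p 0.077). The reads of all 4 transcripts were in part divided with other transcripts, since their expected counts were not whole in every library.

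The later ages were placed beside these values on the same scale. ENSMUST00000020145 was at 381, 540 and 502 CPM at 12 months and at 272, 617 and 603 CPM at 18 months. ENSMUST00000108817 was at 146, 195 and 211 CPM at 12 months and at 165, 293 and 309 CPM at 18 months. Replicate 1 was the lowest library of both transcripts at 12 and at 18 months. All 6 libraries of 12 and 18 months lay above the 3 of 1 month in both transcripts. The 3 of 6 months did so by the rule that chose the transcripts. ENSMUST00000121746 was at 32.8, 48 and 50.5 CPM at 12 months and at 39.7, 19.8 and 14.6 CPM at 18 months. ENSMUST00000113600 was at 163, 182 and 198 CPM at 12 months and at 168, 169 and 149 CPM at 18 months. In these 2 transcripts all 6 libraries of 12 and 18 months lay below those of 1 month, and the 3 of 6 months did so by the same rule. ENSMUST00000113600 was nearer to its level at 1 month again at 12 months than at 6 months. The later ages share the 3 libraries of 1 month with the comparison that chose the transcripts, so their position is a description and not a second test.

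**Figure D2:**
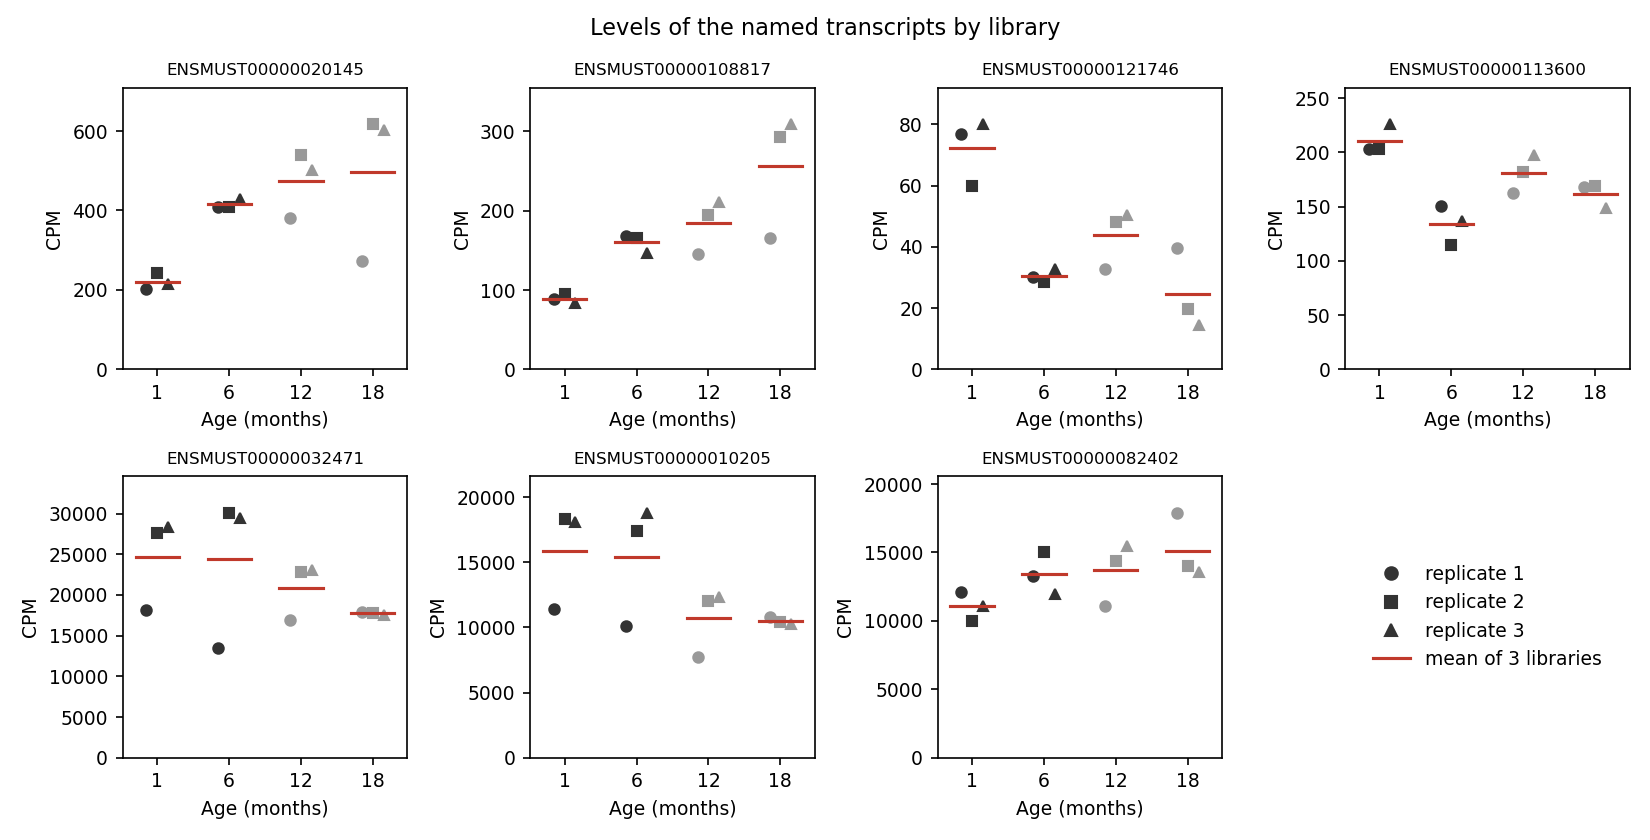
CPM of 7 transcripts by age in months, 1 symbol per library (circle, square and triangle for replicates 1, 2 and 3), with the mean of 3 libraries as a line and the compared ages in dark symbols. The upper panels show groups that do not overlap between 1 and 6 months, and in the first 2 lower panels replicate 1 lies below the other libraries at 1, 6 and 12 months.

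The second question was how far the ages differ in general. The fitted log2 fold changes were centred near 0, with a median of -0.009 and quartiles of -0.18 and 0.19, and from the tenth to the ninetieth percentile they spanned -0.34 to 0.39. The median difference between the mean levels of the ages, without regard to sign, was 0.188 on the log2(CPM + 1) scale, and the median SD between replicates on that scale was 0.282. The first value is between means of 3 libraries and the second between single libraries, so they are not to be set against each other. For 2806 transcripts (72.9%) the 95% interval of the log2 fold change, taken for each transcript alone, lay inside a 2-fold change in either direction. For the other transcripts a change of 2-fold was not bounded by these 6 libraries.

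Groups that did not overlap were about as frequent in either direction. All 3 libraries at 6 months lay above all 3 at 1 month for 203 transcripts (5.28%) and below them for 216 (5.61%). With TMM scaling these were 249 (6.47%) and 156 (4.06%). The share of the higher side among them moved from 48.4% to 61.5%, so the balance of directions depended on the scaling. With the main scaling 10.9% of the transcripts had groups without overlap in either direction. Where 3 libraries against 3 fall in random order, that share is 0.1. These shares are a description and were not tested, and a lack of overlap alone is not evidence that a transcript changes. Most of the ratios were small: 327 of these transcripts had a ratio of means under 1.5-fold and 19 one of 2-fold or more. The median ratio was 1.37-fold for those higher, with quartiles of 1.22 and 1.54, and 1.28-fold for those lower, with quartiles of 1.21 and 1.41.

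**Figure D3:**
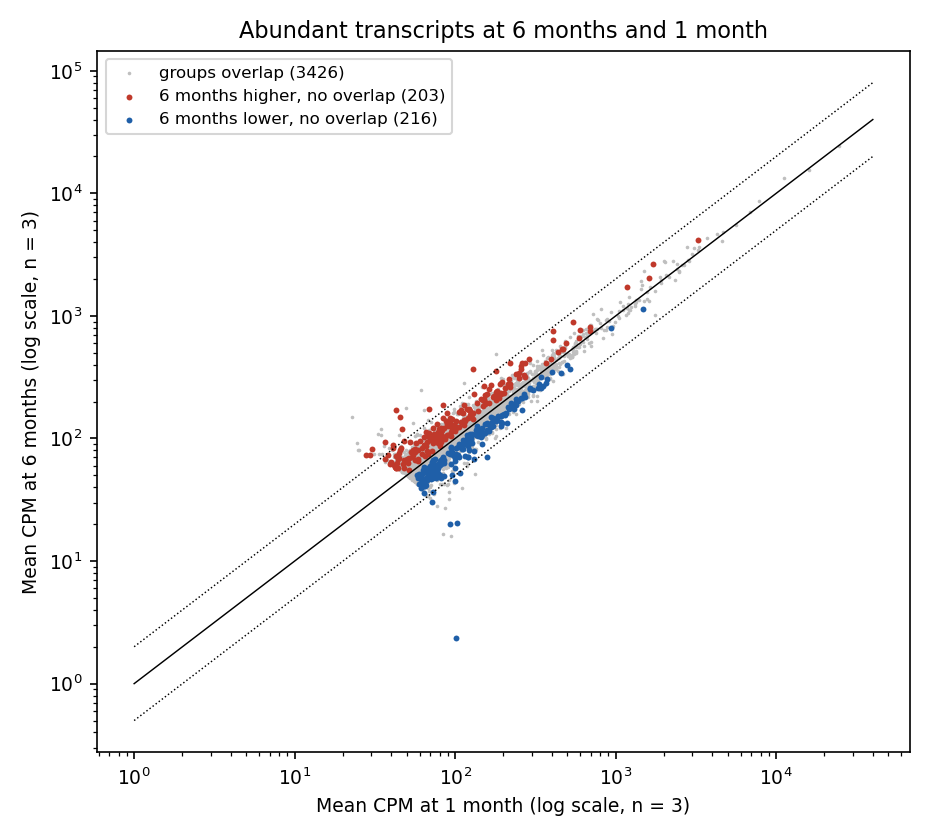
Mean CPM at 6 months against mean CPM at 1 month on log axes, 1 point per abundant transcript with reads at both ages, with the line of equal levels and dotted lines at a 2-fold difference. The 203 transcripts higher without overlap (red) and the 216 lower without overlap (blue) lie mostly inside the dotted lines.

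The spread between libraries was widest in the most abundant class at 6 months. Between 50 and 100 CPM, 2196 transcripts had a median coefficient of variation of 18.8% between libraries at 1 month and 19.8% at 6 months. Their groups did not overlap for 91 higher (4.14%) and 113 lower (5.15%), beside 5.28% and 5.61% over all 3847. Between 100 and 1000 CPM, 1582 transcripts varied by 15.1% and 16.9%, with 108 higher (6.83%) and 102 lower (6.45%). At 1000 CPM or more, 69 transcripts varied by 18.9% and 26.9%, with 4 higher (5.8%) and 1 lower (1.45%). The most abundant class includes the 2 leading transcripts whose levels separated replicate 1 from the remaining libraries.

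Large ratios went together with lost values. The mean at 6 months was 2-fold or more above that at 1 month for 33 transcripts and 2-fold or more below it for 23. With a count required in each of the 6 libraries, 16 and 10 remained. The groups did not overlap for 12 of the 33 and 7 of the 23. In all, 90 abundant transcripts had 0 reads in at least 1 library, 75 of them in a single library, and replicate 2 at 6 months (33) and replicate 2 at 1 month (27) held most of these, which are also the 2 libraries that detected the fewest transcripts. The zeros fell at 1 month alone in 42 transcripts, at 6 months alone in 35 and at both ages in 13.

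A whole age was at 0 reads for 1 transcript in each direction, both named here after their values were seen. ENSMUST00000019192 had 0 reads in the 3 libraries at 1 month and was at 0, 167 and 134 CPM at 6 months. Its mean of 100 ± 88.4 CPM (SD, n = 3) was 621 times a floor of 3 counts per library at 1 month, and its adjusted p in edgeR was 0.989. At 12 and 18 months it was at 0 to 3.92 CPM. ENSMUST00000044217 was at 0, 273 and 105 CPM at 1 month and had 0 reads at 6 months. Its mean of 126 ± 138 CPM at 1 month (SD, n = 3) was 785 times the floor at 6 months, and the edgeR adjusted p was again 0.989. In both transcripts replicate 1 was at 0 at either age, so neither ratio is a lower bound on the difference between the ages. Both passed the limit of 50 CPM only through the age in which they were present. The floors cover counting error only, and a value of 0 can also arise where reads were assigned to an overlapping transcript.

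Transcripts with whole counts, as arise where no read is divided between transcripts, gave steadier values. Of the 3847, 232 had whole expected counts, within 0.004, in all 6 libraries, and none of these 232 was at 0 in any library. Their median coefficient of variation was 12.7% at 1 month and 13.4% at 6 months, against 17.5% and 19.1% for the 3615 others. The correlation of replicate 1 between the ages was 0.939 in this class and that of replicates 2 and 3 within an age 0.947 and 0.943, while replicate 1 and the other libraries stood at 0.833 to 0.873. Replicate 1 therefore stood apart in these transcripts too. The 95% interval lay inside a 2-fold change for 215 of the 232 (92.7%), and none had a ratio of means of 2-fold or more.

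In this class more transcripts were lower than higher at 6 months. The groups did not overlap for 8 higher (3.45%) and 31 lower (13.4%), beside 195 (5.39%) and 185 (5.12%) of the 3615 transcripts with divided reads. The median log2 fold change was -0.08, against -0.002 for the others. With TMM scaling it was -0.04, with groups without overlap for 10 higher (4.31%) and 23 lower (9.91%). Without replicate 1 of both ages it was -0.09. With the edgeR fit repeated on these 232 alone, 0 passed, with 24 at an unadjusted p under 0.05, 18 of them lower. Within the edgeR fit over all 3847 transcripts, 14 of the 232 had an unadjusted p under 0.05, 10 of them lower. A term for replicate 1 was added to the fit after these data were seen. With it, 17 of the 232 passed at an adjusted p of 0.05 in edgeR, 4 higher and 13 lower at 6 months. Their folds ran from 1.24 to 1.89 with a median of 1.41. The spread was fitted and the p values were adjusted over these 232 alone. The same term in a fit over all 3847 transcripts gave 1 call. The imbalance within the class was not tested.

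**Figure D4:**
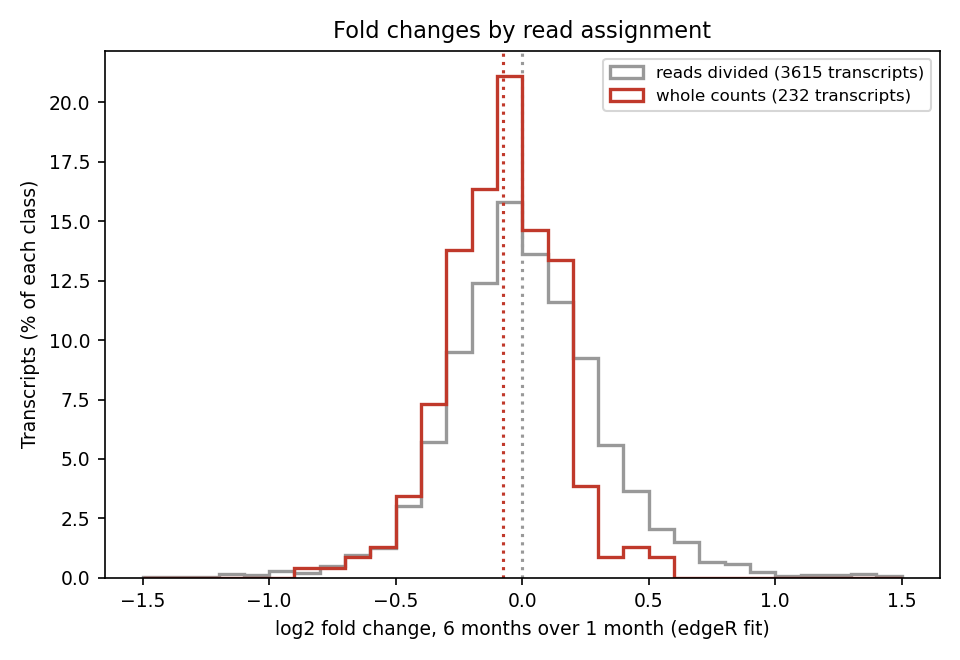
Share of transcripts, in % of each class, by log2 fold change from 1 to 6 months in bins of 0.1, for 232 transcripts with whole counts (red) and 3615 with divided reads (grey), with dotted lines at the medians. The red distribution is narrower and its median is -0.08, and 21 transcripts of the grey class lie outside the plotted range.

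Leaving replicate 1 out at both ages changed the calls. On the remaining 4 libraries 2 transcripts passed edgeR, both higher at 6 months: ENSMUST00000019192 and ENSMUST00000107586, each with an adjusted p of 0.0131. The second was at 129, 0 and 0 CPM at 1 month and at 214, 134 and 162 CPM at 6 months, so the call rests on 0 reads in the 2 libraries of 1 month that detected few transcripts, and with replicate 1 its adjusted p was 0.989 in edgeR. Its mean at 1 month was 42.9 CPM, so like ENSMUST00000019192 it reached the limit of 50 CPM only through its level at 6 months. Neither call is therefore support for a change with age. At 12 months ENSMUST00000107586 was at 136, 187 and 162 CPM and at 18 months at 262, 250 and 281 CPM. ENSMUST00000019192 was at 0 to 3.92 CPM at those ages. These later levels are a description and were not tested. With a term for replicate 1 over all 6 libraries, 1 transcript passed, again ENSMUST00000019192 (edgeR adjusted p 0.0444), which was kept only through 2 libraries at 6 months. ENSMUST00000020145 and ENSMUST00000108817 did not pass in either fit. The groups did not overlap for 952 higher (24.7%) and 854 lower (22.2%) transcripts on these 4 libraries. With 2 libraries set against 2, fewer values have to fall in order, so these counts cannot be compared with the 203 and 216 above.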

How the data were processed

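RNA from whole retina was extracted with Trizol and sequenced from polyadenylated RNA, per the labels' protocols. The authors deposited 1 table of expected counts per Ensembl transcript; the submitters' processing notes name Trim Galore 0.6.6, STAR 2.7.1a and RSEM 1.3.3, without roles. Annotation release and strand setting are not given in the sources used here. Expected counts divide reads between overlapping transcripts and were rounded here before testing.

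The 6 libraries were scaled with median-ratio size factors and tested with edgeR 4.0.16 (quasi-likelihood, robust, R 4.3.3) on 3847 transcripts with a mean of 50 CPM or more, with adjusted p over all of them. DESeq2 1.42.0 and limma 3.58.1 were alternatives. Standard errors were approximated as the log2 fold change over the root of F. Levels at 12 and 18 months were scaled to the geometric mean of the same 6 libraries. The closest pair of libraries differed by 93.1 times the counting variance, so none was counted as a duplicate. Replicate numbers were not taken as pairs: deviations of same-numbered libraries correlated at 0.49, 0.087 and 0.254.

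Named transcripts are the 2 higher and 2 lower with the lowest p among groups without overlap, and the 3 most abundant; the number was limited because no names could be given. The comparison and these rules were chosen with earlier results of these data known. Gene lists could not be run. Settings that treat replicate 1 apart were added after the data were seen.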

Additional observations from a re-analysis of the deposited data

How the results depend on the processing

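The count of 0 calls was recomputed under 22 alternatives, 18 planned and 4 added after the data were seen, and 7 gave another count. The fit without the 3 libraries that detected few transcripts is among the 22. It kept 1 library at 1 month, so its count is not a check. DESeq2 called 10. Without a filter 8 passed, of which 6 had 0 reads in a whole age and 2 were abundant. Leaving out 1 library gave 0 to 1, the call being ENSMUST00000107586 without replicate 1 at 1 month (edgeR adjusted p 0.0106), when the other libraries of that age are at 0 and the transcript is kept only through 6 months. Without replicate 1 of both ages 2 passed and with a term for it 1. Whole counts, fitted and adjusted over their 232 transcripts alone, gave 17 with that term and 17 with the replicate block, 15 of them shared. The replicate block alone left 0 calls, with 361 at an unadjusted p under 0.05. The causes were not tested.

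Groups without overlap numbered 634 higher (4.53%) and 693 lower (4.95%) of 13986 transcripts at a minimum of 10 CPM. At 100 CPM they numbered 112 (6.78%) and 103 (6.24%) of 1651. The counts moved as other numbers of transcripts were compared, beside shares of 5.28% and 5.61% with the main limit. Groups without overlap were 952 (24.7%) and 854 (22.2%) without replicate 1, with 2 libraries against 2, and 8 (3.45%) and 31 (13.4%) with whole counts. The median log2 fold change was -0.078 with whole counts and -0.031 to 0.020 with 1 library left out. It was 0.026 with TMM, so its sign depended on the scaling. Of 75 values for the 4 transcripts tested by name, 71 held their direction and did not pass, 4 passed (3 with DESeq2, 1 without a filter) and 0 reversed. The 4 were chosen for groups without overlap in these same libraries, so a kept direction is no further support for a change. Counts summed per gene were not run, since no table pairs the identifiers with genes.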
